A study of Bos taurus with 12 samples.

Results

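Peroxisomes are membrane-bound organelles that hepatocytes contain in large number. They oxidise fatty acids that mitochondria handle poorly, such as very long and branched chains, shorten the side chain of bile acid precursors, start the synthesis of ether lipids and oxidise glyoxylate and D-amino acids. Their proteins are made in the cytosol and are brought in by peroxins, the products of the PEX genes. The genes described here are 32 genes of peroxisome biogenesis and metabolism, given as a list of symbols and matched to the Entrez gene IDs of the count files through a table of bovine RefSeq names. All 32 were found among the 30336 gene IDs, and all 32 passed the filter on low counts that left 13212 genes for the test. They were 13 peroxins and 19 enzymes and transporters.

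RNA was sequenced from liver taken by puncture biopsy from Holstein heifer calves at 4 d of age. The dams had received a control diet (CON) or that diet with rumen-protected methionine in ethyl cellulose (MET) over the last 28 d before calving, and 6 libraries were made per maternal diet. The calves of both groups were managed alike after birth, each with first colostrum of its own dam. The supplement was fed to the dam and not to the calf. The files hold raw read counts per gene, and levels are given as CPM, the reads of a gene brought to one library total by TMM normalization.

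Between 8277789 and 10397604 reads were counted per library, so that 3 reads, the smallest amount taken as detectable, equal 0.289 to 0.362 CPM (counting error only). All CON libraries carried one first index and all MET libraries another, and the effect of index and that of diet cannot be told apart. The labels name separate calves, but CON replicate 1 was nearly the same library as CON replicate 4, and MET replicate 1 as MET replicate 3. Within these pairs the chi-square per gene was 1.23 to 1.31, close to what counting noise alone gives, against 23.3 to 122.2 for the other pairs of libraries. They were therefore taken as 1 sample each, and levels are over 5 samples per diet (the mean of the pair, then the other 4 replicates in their numbered order). The diets were compared with the quasi-likelihood test of edgeR, adjusted by Benjamini-Hochberg over all genes tested. It was run on the 12 libraries, as the study did, and again on the 10 samples, and a gene was called at an adjusted p of at most 0.10. Summed over the 7 hepatocyte markers ALB, TTR, APOA1, TF, FGB, CPS1 and TAT, the level was 128200 to 173200 CPM in CON and 106400 to 132300 CPM in MET samples, and none of the markers was at 0.

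One gene of the 32 was called over the 12 libraries. SCP2, which encodes a peroxisomal thiolase and a sterol carrier protein, fell 1.79-fold in MET calves. Over all genes tested, 4.41% were called over the 12 libraries and 2.32% were called lower, so that 1 of 32 (3.125%) is near the background. Over the 10 samples edgeR called none of the 32 and none of the 13242 genes tested (0%), and DESeq2, an alternative count test, called 2 of the 32 (SCP2 and EHHADH, both lower) against 4.83% of all genes, or 2.51% lower. Over the 12 libraries DESeq2 called 4 of the 32, all lower, against 9.95% of all genes, or 5.15% lower. At an unadjusted p of at most 0.05, edgeR gave 9 of the 32 over the 12 libraries, or 28.1% against 20.5% of all genes. Of these 9, 3 were higher (PEX2, PEX19 and PEX26) and 6 lower (PEX13, ACOX2, EHHADH, SCP2, SLC27A2 and AGPS), where all genes gave 10.2% and 10.4%. Over the 10 samples these were 6 of 32, or 18.75% against 16.3% of all genes, with 1 higher and 5 lower where all genes gave 7.83% and 8.52%.

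Peroxins and enzymes were spread differently around 0. Of the 13 PEX genes, 7 had a fitted log2 fold change above 0 and 6 below it, with a median of 0.11. Of the 19 enzymes and transporters, 3 were above 0 and 16 below it, with a median of −0.28. Over all 32 genes the median was −0.10, against −0.0031 for all genes tested, of which 50.4% were below 0. Over the 10 samples, 21 of the 32 were below 0, against 50.5% of all genes. These counts and medians are descriptions, and no test of the list was run.

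**Figure D1:**
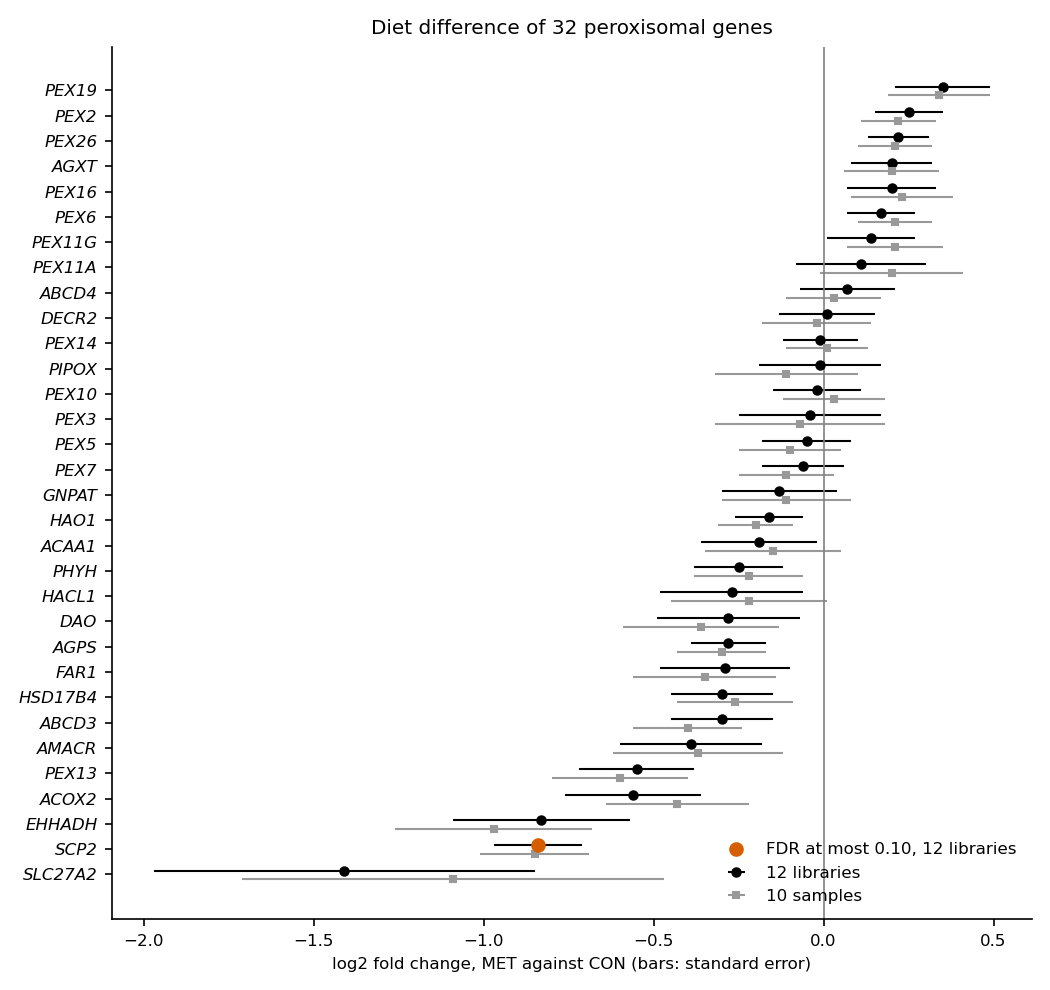
Fitted log2 fold change of each of the 32 genes in MET against CON calves, with bars of 1 standard error, over the 12 libraries (circles) and over the 10 samples (grey squares). The orange circle marks SCP2, the gene with an adjusted p of at most 0.10 over the 12 libraries. The largest difference with a narrow bar is that of SCP2 at −0.84, SLC27A2 lies lower at −1.41 with a wide bar, and PEX19 is highest at 0.35.

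The levels of these genes spanned a wide range. Per kilobase of exon, the mean over all samples ran from 1.73 CPM per kb for PEX11A to 324 CPM per kb for ACAA1. The 4 highest were ACAA1, PHYH, SCP2 and DECR2, all enzymes of fatty acid oxidation, with 324, 299, 139.7 and 115 CPM per kb. The 2 lowest were PEX11A and FAR1, a fatty acyl-CoA reductase, with 1.73 and 3.16 CPM per kb. PEX11G was the PEX gene with the highest level, at 45.3 CPM per kb, and the other peroxins lay between 1.73 and 23.7 CPM per kb. ACAA1 and PHYH were not apart beyond their spread, at 341 ± 54.6 and 322 ± 40.9 CPM per kb in CON calves (SD, n = 5). PHYH and SCP2 were apart in CON calves, where SCP2 was at 179.6 ± 23.1 CPM per kb. In MET calves SCP2, at 99.9 ± 18.1 CPM per kb, differed by less than the SD of either gene from DECR2 at 114 ± 15.3 and from ACOX2 at 89.9 ± 11.2 CPM per kb.

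**Figure D2:**
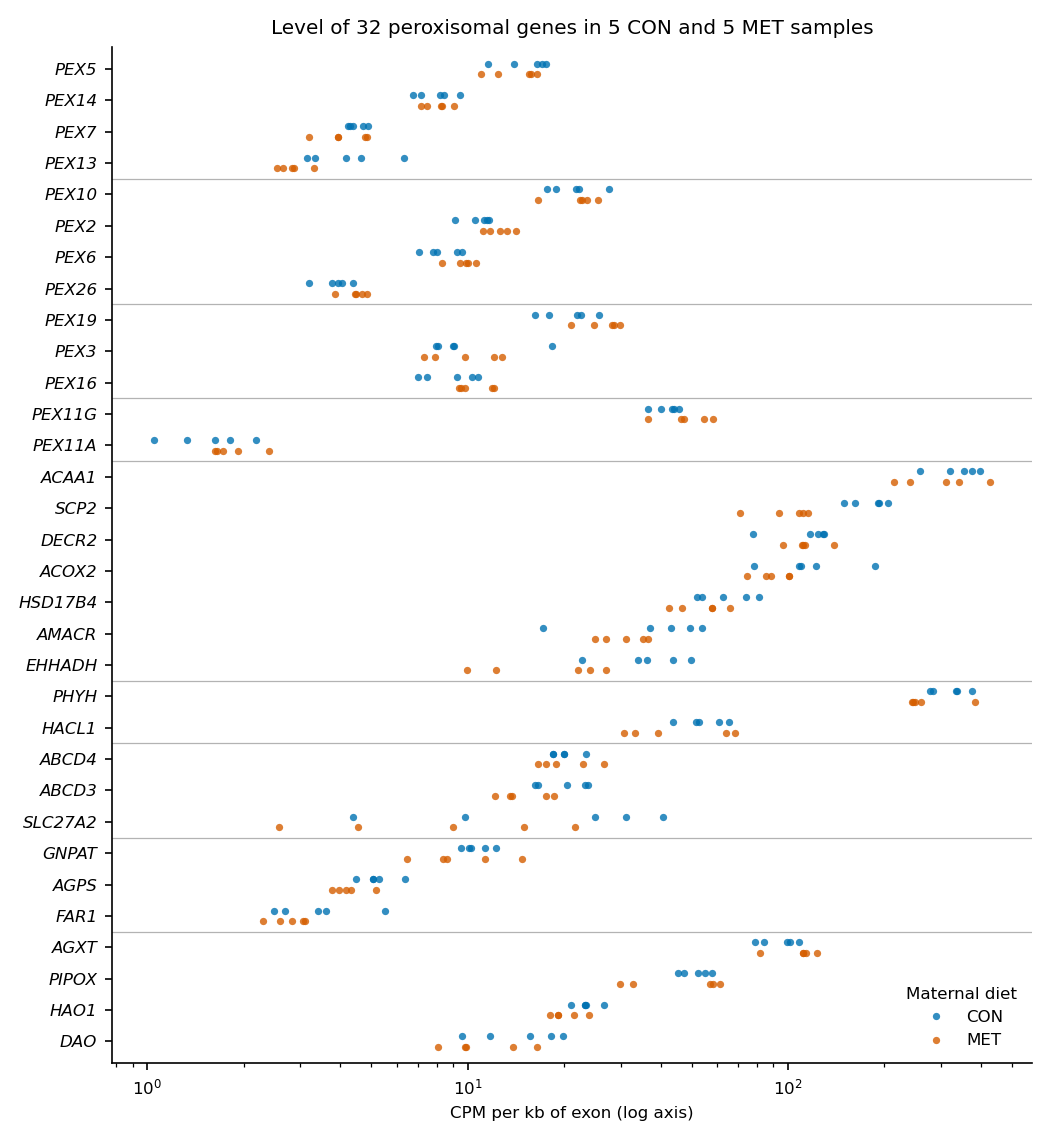
Level of each of the 32 genes as CPM per kb of exon on a log axis, in 5 CON samples (blue) and 5 MET samples (orange). Horizontal lines part the genes by role, from the import receptors at the top to the amino acid oxidases at the bottom. The points of the diets lie among each other in every row but that of SCP2, and SLC27A2 has the widest spread.

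PEX5 and PEX7 are the receptors that carry matrix proteins to the peroxisome, and PEX13 and PEX14 form the docking site on its membrane. None of these 4 genes was called by edgeR, 1 of 4 had an unadjusted p of at most 0.05 and DESeq2 called 1 of 4, in each case PEX13. Over the 12 libraries, 4 of 4 had a log2 fold change below 0. PEX13 (chr11:43608812-43640303, plus strand, UMD 3.1.1) stood at 7.04, 6.66, 13.4, 9.80 and 8.82 CPM in CON and at 6.05, 7.03, 5.99, 5.60 and 5.36 CPM in MET samples. Only 1 CON sample, replicate 2, was below the highest MET sample, and all MET samples were below the CON median. Its log2 fold change was −0.55 with a standard error of 0.17 (edgeR's quasi-likelihood test, adjusted p = 0.113), and over 10 samples it was −0.60 (edgeR adjusted p = 0.195). Without CON replicate 2 the edgeR adjusted p was 0.0959, and with any other library left out it stayed above the threshold. PEX5, PEX7 and PEX14 had log2 fold changes of −0.05, −0.06 and −0.01, each smaller than its standard error of 0.13, 0.12 and 0.11.

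After delivery of cargo, PEX2 and PEX10 act as ubiquitin ligases on PEX5, and PEX6, an ATPase anchored by PEX26, takes part in pulling the receptor back out of the membrane. None of the 4 genes was called by edgeR or DESeq2, and 2 of 4, PEX2 and PEX26, had an unadjusted p of at most 0.05 in edgeR's test over the 12 libraries. PEX2 was at 15.3, 18.9, 19.2, 19.5 and 17.6 CPM in CON and at 21.1, 18.6, 19.7, 23.6 and 22.2 CPM in MET samples. Every MET sample but replicate 2 was above all CON samples. For PEX2 the log2 fold change was 0.25 with a standard error of 0.10 (edgeR adjusted p = 0.169). PEX26 had 0.22 with a standard error of 0.09 (edgeR adjusted p = 0.204), and PEX6 had 0.17 with 0.10 (edgeR adjusted p = 0.372). PEX10 had a log2 fold change of −0.02 and a standard error of 0.13.

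PEX19 is the cytosolic chaperone of peroxisomal membrane proteins, PEX3 is its anchor on the membrane and PEX16 recruits PEX3. PEX19 (chr3:9517705-9523145, plus strand, UMD 3.1.1) was at 31.6, 44.0, 50.2, 42.8 and 34.9 CPM in CON and at 41.1, 48.2, 58.1, 55.6 and 55.1 CPM in MET samples. The MET samples of replicates 4, 5 and 6 were above all CON samples, and the other two lay within the CON range. Its log2 fold change of 0.35 with a standard error of 0.14, the largest increase among the 32 fitted values, did not pass the threshold (edgeR adjusted p = 0.185 over 12 libraries and 0.282 over 10 samples). PEX16 had a log2 fold change of 0.20 with a standard error of 0.13, and exons of PEX16 overlap those of FREY1 on the same strand, so that reads on the shared bases were not counted. PEX3 had a log2 fold change of −0.04 with a standard error of 0.21, the largest standard error among the peroxins. One CON sample, replicate 5, held 51.4 CPM of PEX3 where the other CON samples held 22.3 to 25.3 CPM, and without it the log2 fold change was 0.21.

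PEX11A and PEX11G belong to the family that elongates peroxisomes before they divide. PEX11A was at 6.31, 3.02, 4.69, 5.21 and 3.84 CPM in CON and at 4.97, 6.93, 5.53, 4.70 and 4.74 CPM in MET samples. The groups overlapped over most of their range. PEX11A had 24 to 71 reads per library, the fewest of the 32 genes, and its exons overlap those of PLIN1 on the same strand, so that reads on the shared bases were not counted. Fitted log2 fold changes were 0.11 with a standard error of 0.19 for PEX11A and 0.14 with 0.13 for PEX11G, and neither gene passed any of the thresholds in edgeR or DESeq2.

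The enzymes of peroxisomal beta-oxidation held the gene that was called, SCP2, and the gene next nearest to the threshold, EHHADH. Of 7 genes, 6 had a log2 fold change below 0 over the 12 libraries, and their median was −0.39. SCP2 (chr3:93786365-93968416, minus strand, UMD 3.1.1) was at 649.5, 693, 506, 547.5 and 645 CPM in CON and at 367, 391, 376, 240.5 and 316 CPM in MET samples. All MET samples were below all CON samples. SCP2 was the one gene of the 32 whose groups did not overlap, against 3.71% of all genes in either direction and 1.77% with MET lower. The means were 608 ± 78.1 CPM in CON and 338 ± 61.4 CPM in MET samples (SD, n = 5 each), and the log2 fold change was −0.84 with a standard error of 0.13 (edgeR's quasi-likelihood test over 12 libraries, adjusted p = 0.0381). Over the 10 samples the fold change was nearly the same, −0.85, but the call was lost (edgeR adjusted p = 0.156, DESeq2 adjusted p = 0.000247). The exact two-sided permutation p over the 10 samples was 0.00794, the smallest that 5 samples against 5 allow.

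SCP2 is also among the genes that the study lists as differentially expressed, a list made from these same libraries, so that the separation is not independent evidence. The gene has separate promoters for the thiolase and for the sterol carrier protein, and the counts per gene do not part the transcripts. The hepatocyte markers were lower in MET samples too, in 5 of 7 genes, with a median log2 fold change of −0.28. None of the 7 was called by edgeR over the 12 libraries, 2 of 7 were lower at an unadjusted p of at most 0.05, and DESeq2 called 2 of 7. Among the markers of other cells, those of dividing cells were lower in 4 of 4 genes, with a median of −1.34 and 2 called by edgeR. The 2 called, CCNB1 and CDK1, are also in the study's list from these same libraries, so they are not independent evidence. The summed level of the 4 markers of dividing cells was 17.4 to 70.7 CPM in CON and 8.98 to 23.3 CPM in MET samples. The 6 macrophage markers were higher in 6 of 6, with a median of 0.20 and a sum of 877.5 to 1247 CPM in CON and 1012 to 1426 CPM in MET samples. The 5 stellate cell markers were lower in 5 of 5, with a median of −0.29 and a sum of 561 to 819 CPM in CON and 412 to 677 CPM in MET samples. Of the macrophage and stellate markers edgeR called none, with 2 of 6 and 1 of 5 at an unadjusted p of at most 0.05, and DESeq2 called 2 of 6 and 0 of 5. The neutrophil markers S100A12 and CXCR2 were higher in 2 of 2, with a median of 0.91 and a sum of 7.89 to 25.8 CPM in CON and 11.4 to 79.5 CPM in MET samples. EdgeR called neither, with 1 of 2 at an unadjusted p of at most 0.05, and DESeq2 called 1 of 2. The tested markers of cholangiocytes, endothelial cells, erythroid cells and lymphocytes had medians of −0.20, −0.09, −0.16 and 0.25. Among these 4 lists neither edgeR nor DESeq2 called a gene, and 1 endothelial marker had an unadjusted p of at most 0.05 in edgeR's test. No matched marker was at 0, and the part of these cells in the values of SCP2 was not tested. In bulk tissue, fewer cells of a type and less RNA per cell cannot be told apart.

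EHHADH and HSD17B4 encode the bifunctional enzymes that carry out the middle steps of the cycle, and EHHADH is a classical target of the nuclear receptor PPARA. EHHADH (chr1:82467817-82521151, plus strand, UMD 3.1.1) was at 62.3, 120.0, 93.1, 136 and 99.4 CPM in CON and at 60.4, 73.8, 33.6, 27.2 and 66.0 CPM in MET samples. The CON sample from replicates 1 and 4 lay among the MET samples, and the other 4 CON samples were above all MET samples. The log2 fold change was −0.83 with a standard error of 0.26 (edgeR adjusted p = 0.110), and over 10 samples it was −0.97 with an edgeR adjusted p of 0.181. DESeq2 passed the threshold for EHHADH in both, with adjusted p = 0.0381 and 0.0423. HSD17B4 had a log2 fold change of −0.30 with a standard error of 0.15 (edgeR adjusted p = 0.266).

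ACOX2 encodes the oxidase that opens the cycle for branched chains and bile acid intermediates, and AMACR the racemase that brings branched chains into the form it accepts. ACOX2 was at 603, 394, 253, 354 and 349.9 CPM in CON and at 286, 275, 239.8, 324 and 326 CPM in MET samples. The CON sample from replicates 1 and 4 was far above the rest, the CON sample of replicate 3 lay among the MET samples and the others were above them. The log2 fold change was −0.56 with a standard error of 0.20 (edgeR adjusted p = 0.140 over 12 libraries), −0.43 over the 10 samples, and the edgeR adjusted p was 0.0941 without CON replicate 3. AMACR was at 68.9, 78.9, 59.1, 86.2 and 27.5 CPM in CON and at 49.8, 58.5, 39.7, 56.3 and 43.2 CPM in MET samples. All CON samples but replicate 6, the lowest of all 10, were above all MET samples. For AMACR the log2 fold change was −0.39 with a standard error of 0.21 (edgeR adjusted p = 0.316), and without CON replicate 6 it was −0.55 with an edgeR adjusted p of 0.0765.

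ACAA1, the thiolase that ends the cycle for straight chains, was at 635, 564, 412, 598.5 and 510.1 CPM in CON and at 497, 544, 341, 384 and 681 CPM in MET samples. MET replicate 6 was the highest of all samples and MET replicate 4 the lowest, and the log2 fold change of −0.19 had a standard error of 0.17. DECR2, a dienoyl-CoA reductase for unsaturated chains, was at 262, 263, 158, 252 and 238 CPM in CON and at 282, 196.5, 226, 225 and 229.6 CPM in MET samples. The MET samples lay inside and around the CON range, and the log2 fold change was 0.01 with a standard error of 0.14. CON replicate 3 was apart from the other CON samples at the low end.

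**Figure D3:**
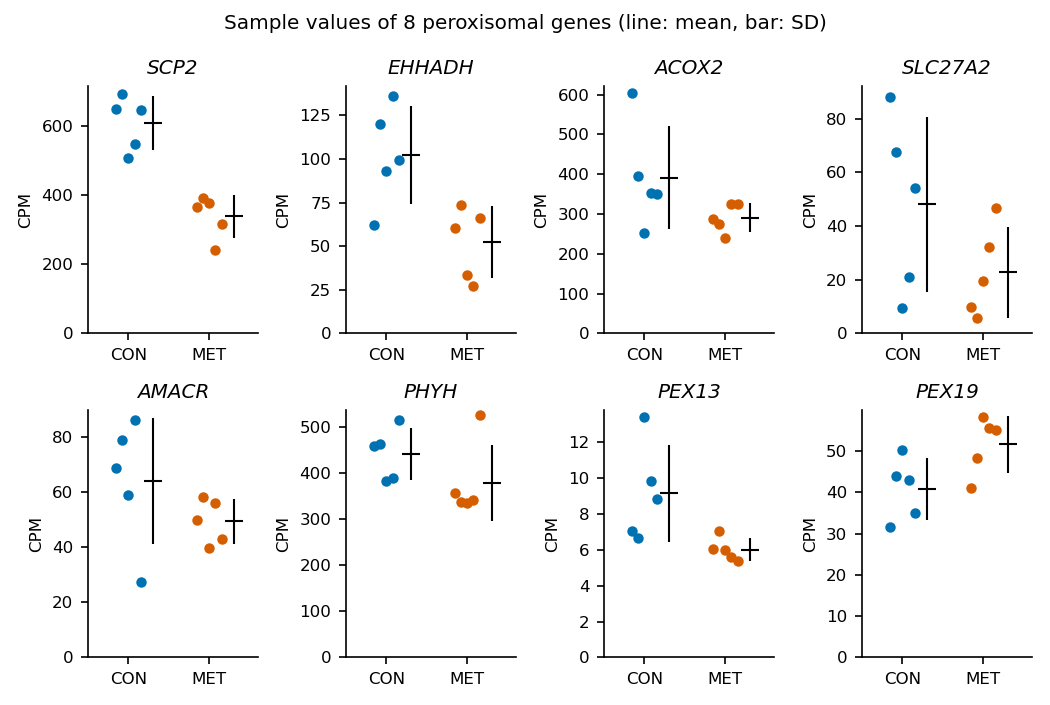
CPM in each of 5 CON and 5 MET samples for 8 of the 32 genes, with the mean as a line and the SD as a bar. The axes start at 0, and the sideways placing of the points only keeps them apart. The groups do not overlap for SCP2, where CON samples run from 506 to 693 CPM and MET samples from 240.5 to 391 CPM, and overlap for the other 7 genes.

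Alpha-oxidation removes 1 carbon from branched chains such as phytanic acid, which ruminants take up from chlorophyll, before beta-oxidation can begin. PHYH, its hydroxylase, was at 459, 463, 382, 389 and 515 CPM in CON and at 356, 338, 334, 341.5 and 525 CPM in MET samples. The MET samples other than replicate 6 were below all CON samples, while MET replicate 6 was the highest of all. For PHYH the log2 fold change was −0.25 with a standard error of 0.13 (edgeR adjusted p = 0.317), and the lowest adjusted p with any library left out was 0.117. HACL1, the lyase of the next steps, ran from 155 to 232 CPM in CON and from 109 to 243 CPM in MET samples, with a log2 fold change of −0.27 and a standard error of 0.21.

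ABCD3 brings branched acyl-CoA and bile acid intermediates through the peroxisomal membrane, and SLC27A2 activates very long chains and bile acids. SLC27A2 was at 88.0, 67.4, 9.49, 21.2 and 54.1 CPM in CON and at 9.78, 5.57, 19.5, 32.3 and 46.6 CPM in MET samples. Both groups ran from below 10 CPM to far higher, and the coefficient of variation was 67.6% in CON and 74.1% in MET samples, the largest of the 32 genes in either diet. Its log2 fold change of −1.41 was the largest in size of the 32 but had a standard error of 0.56 (edgeR adjusted p = 0.183 over 12 libraries), and over 10 samples it was −1.09 (edgeR adjusted p = 0.401). ABCD3 had a log2 fold change of −0.30 with a standard error of 0.15 (edgeR adjusted p = 0.260). ABCD4, of the same family but known mainly for moving cobalamin out of lysosomes, had 0.07 with 0.14.

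GNPAT and AGPS carry out the first peroxisomal steps of ether lipid synthesis, and FAR1 supplies their fatty alcohol. None was called by edgeR or DESeq2, AGPS had an unadjusted p of 0.0196 in edgeR's test over the 12 libraries, and 3 of 3 had a log2 fold change below 0. AGPS had −0.28 with a standard error of 0.11 (edgeR adjusted p = 0.165), and its samples ran from 17.4 to 24.6 CPM in CON and from 14.6 to 20.03 CPM in MET calves. FAR1 was at 7.67, 8.30, 17.04, 11.2 and 10.6 CPM in CON and at 8.03, 7.13, 8.75, 9.62 and 9.48 CPM in MET samples. CON replicate 3 was the highest of all, and 2 CON samples lay inside the MET range. FAR1 and GNPAT had log2 fold changes of −0.29 with a standard error of 0.19 and −0.13 with 0.17.

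HAO1 turns glycolate into glyoxylate, AGXT removes glyoxylate by forming glycine, PIPOX oxidises pipecolate and sarcosine and DAO oxidises D-amino acids. No gene of these 4 was called by edgeR or DESeq2, and their unadjusted p-values in edgeR's quasi-likelihood test ran from 0.121 to 0.953. AGXT was the enzyme with the largest fitted value above 0, 0.20 with a standard error of 0.12. HAO1 had −0.16 with 0.10 and DAO −0.28 with 0.21. PIPOX had −0.01 with 0.18, but its samples ran from 124 to 157.2 CPM in CON and from 81.4 to 167 CPM in MET calves, with MET replicates 4 and 5 below all CON samples. The other MET samples but replicate 2 were above all CON samples.

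The spread between calves of one diet differed among the genes. The coefficient of variation in CON samples was lowest for PEX7 at 6.26% and in MET samples for PEX26 at 8.30%. HACL1, PIPOX and GNPAT were more even in CON than in MET samples, at 15.5%, 9.99% and 10.1% against 37.5%, 31.8% and 32.6%. PEX13, ACOX2 and FAR1 were the other way, at 29.5%, 33.2% and 33.9% in CON against 10.7%, 12.4% and 12.1% in MET samples. These differences in spread were not tested.

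Some calves stood at the end of the range for many genes. Among the CON samples, replicate 5 was the highest in 11 of the 32 genes and the lowest in 0, and replicate 3 was the lowest in 13. Among the MET samples, replicate 6 was the highest in 12 and replicates 4 and 5 were the lowest in 11 and 8. Averaged over the 19 enzymes and transporters, the level was 6.37 to 6.74 on the log2 CPM scale in CON and 6.08 to 6.46 in MET samples. Over the 13 PEX genes the mean was 4.52 to 4.79 in CON and 4.59 to 4.77 in MET samples. The enzymes of MET replicate 6, at 6.46, lay above those of CON replicates 3 and 6, at 6.37 and 6.45, and those of all other MET samples were below all CON samples.

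The other genes of the organelle were followed by a list of 47, of which 46 were matched and 44 passed the filter. Over the 12 libraries 8 of 44 (18.18%) were called, 2 higher and 6 lower in MET calves, against 2.09% and 2.32% of all genes. The study's own list of differentially expressed genes, made from these libraries, holds all 8, so that they are not independent evidence of direction. Over the 10 samples edgeR called 0 of them (0% of all genes), with 11 of 44 (25%) at an unadjusted p of at most 0.05 against 16.3% of all genes, and DESeq2 called 8 of 44 against 4.83% of all genes. Without CON replicate 1 or without CON replicate 4, the libraries that are nearly the same, edgeR called 1 of 44 in each case, where the calls over all genes fell from 583 to 26 of 13319 and to 35 of 13320.

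CAT, the catalase that breaks down the hydrogen peroxide of the oxidases, was at 2275, 2125, 1421, 2016 and 1861 CPM in CON and at 1228, 1208, 1037, 1020 and 1032 CPM in MET samples. All MET samples were below all CON samples. The log2 fold change was −0.83 with a standard error of 0.13 (edgeR adjusted p = 0.0398), and over the 10 samples the edgeR adjusted p was 0.156. CAT, like SCP2, was called with each of the 12 libraries left out in turn.

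Also called lower were ACBD5, which tethers peroxisomes to the endoplasmic reticulum, ALDH3A2, a fatty aldehyde dehydrogenase, and NUDT12, a hydrolase of nucleotide cofactors. Their log2 fold changes were −0.54, −0.51 and −0.41 (edgeR adjusted p = 0.0571, 0.0792 and 0.0764).

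The genes called higher were ECH1, a dienoyl-CoA isomerase, and TYSND1, the protease that trims imported enzymes such as ACAA1, HSD17B4 and SCP2. ECH1 was at 149, 123, 143.5, 144 and 135 CPM in CON and at 172, 169, 229.9, 213 and 199.7 CPM in MET samples. All MET samples were above all CON samples, as in 1.94% of all genes, and the log2 fold change was 0.45 with a standard error of 0.11 (edgeR adjusted p = 0.0674). TYSND1 had a log2 fold change of 0.44 with a standard error of 0.13 (edgeR adjusted p = 0.0869), and CON replicate 5, at 28.5 CPM, lay within the MET range of 26.1 to 33.4 CPM.

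**Figure D4:**
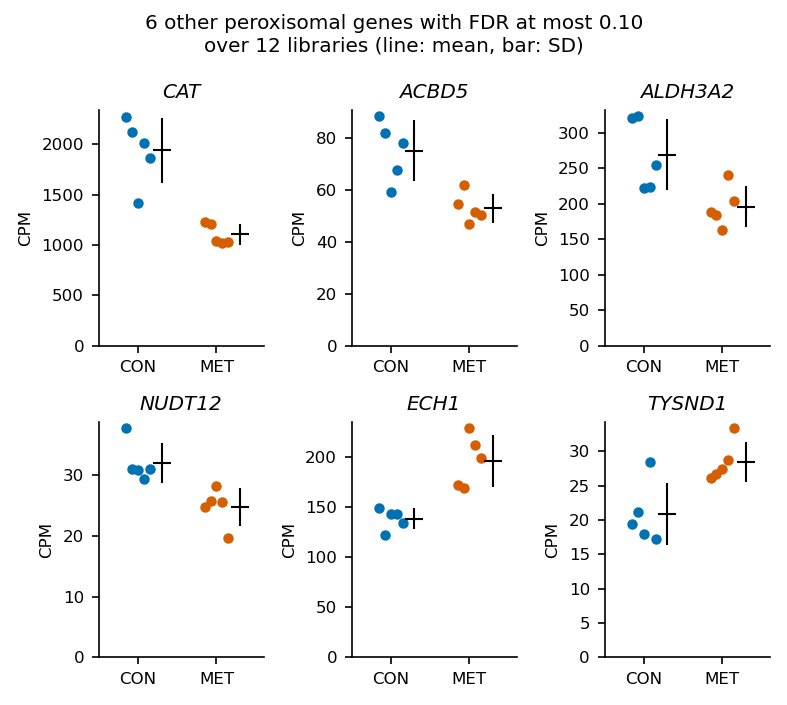
CPM in each of 5 CON and 5 MET samples for 6 other peroxisomal genes called over the 12 libraries, with the mean as a line and the SD as a bar. The axes start at 0, and the sideways placing of the points only keeps them apart. CAT and NUDT12 are lower and ECH1 is higher in all MET than in all CON samples, while the groups of ACBD5, ALDH3A2 and TYSND1 overlap.

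PPARA, the nuclear receptor that drives many genes of peroxisomal and mitochondrial fatty acid oxidation, was at 18.6, 16.6, 18.9, 15.9 and 19.6 CPM in CON and at 15.4, 10.2, 13.9, 13.9 and 12.2 CPM in MET samples. The groups did not overlap, although the highest MET and the lowest CON sample were close. The log2 fold change was −0.42 with a standard error of 0.12 (edgeR adjusted p = 0.0849 over 12 libraries and 0.178 over 10 samples), and the call held without 2 of the 12 libraries and was lost without any of the others. Of 13 tested genes in the list of PPARA, its partners and its targets outside the peroxisome, 3 were called, all lower, against 4.41% of all genes. They were PPARA itself, CPT1A and ACADM, and all 3 are in the study's list.

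Mitochondrial beta-oxidation takes over the shortened chains. Of 17 genes tested, 2 (11.76%) were called, CPT1A and ACADM, both lower, against 2.32% of all genes called lower. The median log2 fold change was −0.05 beside −0.39 for the 7 peroxisomal beta-oxidation genes. CPT1A, the gate for entry of long chains, had a log2 fold change of −0.55 (edgeR adjusted p = 0.0846), and ACADM, the dehydrogenase for medium chains, had −0.75 (edgeR adjusted p = 0.0798). Both calls were lost over the 10 samples (edgeR adjusted p = 0.183 and 0.180) and with the trend on gene length removed (edgeR adjusted p = 0.137 and 0.103), and they held in 4 and 5 of the 12 fits with a library left out. The log2 fold changes of CPT1A and ACADM were −0.54 and −0.79 over the 10 samples. With the length trend removed they were −0.46 and −0.75. DESeq2 called both genes over the 10 samples (DESeq2 adjusted p = 0.0493 and 0.0446). Below 0 were 9 of the 17 mitochondrial genes and 6 of the 7 peroxisomal ones, but with the trend on gene length removed these were 13 of 17 and 7 of 7, with medians of −0.07 and −0.44. The difference between these lists was not tested.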

How the data were processed

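Liver RNA of 12 Holstein calves was measured by stranded RNA sequencing. The authors trimmed reads with Trimmomatic, mapped them with STAR 2.5.3a (bovine assembly UMD 3.1.1) and deposited raw counts per Entrez gene ID from featureCounts (Subread 1.5.2), without normalization. Reads matching several places or several genes were left out, which lowers genes with overlapping exons or near copies. Symbols came from a RefSeq table (assembly ARS-UCD2.0, used for names only), which named 25105 of 30336 IDs. Coordinates are those of the count files. No sequence is shown.

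Counts were TMM-normalized in edgeR 4.0.16 (R 4.3.3), filtered with edgeR's defaults (minimum count 10, minimum total 15) and tested with the quasi-likelihood test on diet, with Benjamini-Hochberg adjustment. Standard errors were worked back from the quasi-likelihood test, as the size of the log2 fold change over the square root of its F statistic. Where 10 samples were tested, the reads of a near-identical pair were summed. Exact permutation tests used log2 CPM with a prior count of 2. The members and lists were chosen with earlier results of these data known. Sample values were to be given for members that were called or did not overlap, the 4 highest and the 2 lowest per length, and for called genes of the other lists. Some of the latter are counted but not reported here by name. The sample values of other members were chosen after they were seen. p-values over the 10 samples measure the spread between these samples. Those over the 12 libraries count both libraries of each near-identical pair as separate calves, and so can understate the spread between calves.

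Alternatives covered normalization, filter, test (DESeq2 1.42.0, voom of limma 3.58.1), gene length, replicate block and left-out libraries. The steps were tested on simulated data of 13088 genes with 12 libraries, where edgeR recovered 79 of 100 genes changed by 1 on the log2 scale, with 19 unchanged genes called among all genes. With 10 samples it recovered 74 of 100, with 14 called. The simulated libraries were independent and held no near-identical pairs. Their spread was taken from the 12 real libraries, with each pair counted as separate libraries. These shares therefore show that the steps run as intended, and are not rates for the real data. Figures were drawn with Python 3.11.15.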

Additional observations from a re-analysis of the deposited data

Results flagged for a closer look

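Of 64 groups (32 genes in each diet), 3 held a sample far from the other 4, judged by its gap to the nearest sample over the range of the group. Chance alone sets 1 in 20 groups apart in this way, so 3 of 64 is no more than that share. PEX3 in CON calves was at 51.4 CPM in replicate 5, above the 22.3 to 25.3 CPM of the other CON samples. DECR2 in CON calves was at 158 CPM in replicate 3, below the 238 to 263 CPM of the others. PHYH in MET calves was at 525 CPM in replicate 6, above the 334 to 356 CPM of the others.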

How the results depend on the processing

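The number of the 32 genes called was 1 over the 12 libraries. It was 4 with DESeq2 (SCP2, EHHADH, ACOX2 and PEX13), 0 over 10 samples, 0 with one library of each near-identical pair left out (an alternative chosen after seeing the data) and 1 to 2 with each library left out. Over 10 samples it was 0 with edgeR in every case run and 2 with DESeq2. Of the other peroxisomal genes, 8 were called. This became 2 with library size only, 4 without a filter, 4 with the length trend removed, 0 over 10 samples, 0 with one library of each pair left out and 1 to 7 with each library left out. Over all genes, 583 were called, 107 with library size only, 238 without a filter, 1314 with DESeq2, 245 with the length trend removed, 0 over 10 samples, 0 with one library of each pair left out, and 26 to 565 with each library left out, the lowest being 26 without CON replicate 1 and 35 without CON replicate 4. The causes were not tested. The median of the 32 genes stayed between −0.15 and −0.06. SCP2 kept its direction in all alternatives, and its call with each library left out.

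Replicate numbers do not pair the samples: same-numbered libraries correlated at −0.19 to 0.148 in their deviations. With the replicate number as a block, edgeR called 0 of the 32 genes, 0 other peroxisomal genes and 6 of all genes, and with the length trend removed as well 0, 0 and 3.

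Signs turned only in genes that were not called. The log2 fold changes became 0.00 for PEX5, 0.03 for PEX14, 0.02 for PEX10 and 0.04 for PIPOX with library size only, −0.01 for DECR2 with the upper quartile, and 0.07 for PEX14, −0.01 for DECR2 and 0.01 for PIPOX with the length trend removed. They became 0.01 for PEX14, 0.03 for PEX10 and −0.02 for DECR2 over 10 samples, 0.01 for PEX3 with the block, 0.07 for PEX14 and 0.03 for PEX3 with block and length, and 0.03 for PEX10 and −0.03 for DECR2 with one library of each pair left out. With each library left out they ran from −0.11 to 0.02 for PEX5, −0.11 to 0.00 for PEX7, −0.06 to 0.04 for PEX14, −0.08 to 0.05 for PEX10, −0.13 to 0.21 for PEX3, −0.09 to 0.06 for DECR2, −0.01 to 0.13 for ABCD4 and −0.08 to 0.10 for PIPOX.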
